A study of Mus musculus with 24 samples.

Results

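The comparison described here asked what a morphine injection does to gene expression in the striatum of mice that had already drunk morphine over a long period. Its members were the 12 arrays of morphine drinkers, out of 24 in the series, chosen by their titles: 6 arrays of mice given a last injection of morphine at 20 mg/kg, and 6 arrays of mice given saline at 10 ml/kg. Both groups were C57BL/6J mice of 6 to 10 weeks, both had drunk morphine, and both were killed 4 h after the injection. The comparison thus leaves out an effect of the drink that is equal in both groups. It does not leave out an effect of the drink on the response to the injection. The other 12 arrays came from mice that had drunk saccharin, a sweetener used as the control drink, with the same 2 injections in groups of 6. The labels do not say whether an array holds the RNA of 1 animal or of a pool, and the p-values measure the spread between these arrays.

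The striatum is a forebrain region built mostly of medium spiny neurons, which carry either the D1 or the D2 dopamine receptor and express opioid receptors and opioid peptides. Morphine acts mainly through the mu opioid receptor, which inhibits adenylyl cyclase and opens inwardly rectifying potassium channels. Some of the genes named below, such as Fkbp5 and Tsc22d3, are known targets of the glucocorticoid receptor. This nuclear receptor binds adrenal steroid hormones, enters the nucleus and activates genes that carry its response element. In brain tissue such targets are known from neurons, astrocytes, oligodendrocytes and the endothelium of the blood-brain barrier.

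Values are normalized log2 intensities of Illumina beadchips, where a difference of 1 is a 2-fold difference, and errors beside means are SD over n = 6 arrays. The 24 arrays lay on 6 chips, each chip holding 1 array of every group, and every gene was fitted over all 24 arrays with chip as a block. Before normalization the arrays of morphine drinkers had median intensities between 164 and 430. Over the 13748 genes tested, any pair of normalized arrays had a correlation between 0.937 and 0.993.

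On 2 arrays, both on chip 2, the marker genes went against the label of striatum. On replicate 32 of the saline group Drd1, the D1 receptor gene, stood at 10.07 and Drd2, the D2 receptor gene, at 7.69. On replicate 31 of the morphine group they stood at 9.83 and 7.08. The other 22 arrays of the series lay between 12.81 and 14.11 for Drd1 and between 10.77 and 12.33 for Drd2. Neurod2, which encodes a neurogenic factor found in cortical pyramidal cells, was higher on these 2 arrays (12.48 and 13.08) than on any of the other 22 (7.94 to 11.45), and so was the astrocyte filament gene Gfap (13.70 and 12.74, against 11.06 to 12.08). Not every such marker stood apart on both arrays. Slc17a7, a vesicular glutamate transporter gene of cortical neurons, was at 13.15 on replicate 32, within the 8.51 to 13.46 of the other 22 arrays, and Aqp4 was at 12.26 on replicate 31, within 11.54 to 12.39. The mean over 15 tested cortical genes was 10.91 and 10.98 on the 2 arrays, within the 9.44 to 11.06 of the others. Since 1 of the 2 arrays belongs to each injection, results are given with all 12 arrays and again without these 2. In bulk tissue, fewer cells of a type and less RNA per cell cannot be told apart.

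The morphine injection raised 9 genes in morphine drinkers and lowered none at an adjusted p of 0.05 (limma, Benjamini-Hochberg over all 13748 genes), 0.0655% of the genes tested. The rises were Plin4, Hif3a, Tsc22d3, Mfsd2a, Sult1a1, Fkbp5, Gjb6, Adipor2 and Mertk. All 9 were higher on 6 of 6 chips, as were 2.73% of the genes tested, which describes the same differences that the test used. At an unadjusted p under 0.05 there were 469 higher genes (3.41%) and 406 lower genes (2.95%). Without the 2 chip 2 arrays 12 genes rose (0.0873%) and none fell, with 397 genes (2.89%) lower at an unadjusted p under 0.05. Of the 9 genes, 8 were among these 12. Gjb6 no longer passed, and Camk1g, Per2, Slc2a1 and Syne1 passed in addition.

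Plin4, which encodes a perilipin that coats lipid droplets, changed by far the most among the 9. In the saline group it lay at 7.07 on the lowest array, 8.09 at the median and 8.54 on the highest, and in the morphine group at 10.83, 11.05 and 11.74. The lowest array after morphine was thus above the highest after saline by over 2 log2 units. With means of 7.95 ± 0.594 and 11.16 ± 0.335, Plin4 rose 9.24-fold (log2 change 3.21, SE 0.229, adjusted p = 6.40e-07 by limma). Within chips the difference ranged from 2.40 on chip 4 to 4.24 on chip 1, and the change was 3.22 without the 2 chip 2 arrays. The saline array of chip 1, at 7.07, lay close to the filter at log2 7.05. Near background the size of a fold change is uncertain, so the direction of the Plin4 change is firmer than its size.

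Tsc22d3 encodes the glucocorticoid-induced leucine zipper, a protein that restrains inflammatory transcription factors. Its arrays ran from 11.95 through a median of 12.34 to 12.47 after saline, and from 13.01 through 13.38 to 13.51 after morphine. No array of one group reached the other, and the within-chip difference was the most even of the 9, between 0.97 and 1.21. The rise was 2.07-fold (log2 change 1.05, SE 0.0888, adjusted p = 5.00e-06 by limma). A dimmer probe of Tsc22d3 had a log2 difference of 1.47, and another close to the filter one of 0.48.

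Fkbp5, a co-chaperone that lowers the hormone affinity of the glucocorticoid receptor, had the tightest saline group of the 9. Its lowest, median and highest arrays were 9.81, 9.90 and 10.07 after saline and 10.39, 10.61 and 11.01 after morphine, again without overlap. It rose 1.68-fold (log2 change 0.75, SE 0.0856, adjusted p = 3.19e-04 by limma). Sult1a1, a phenol sulfotransferase, lay at 10.18, 10.29 and 10.64 after saline and at 11.04, 11.31 and 11.53 after morphine. The groups were apart on every array, and Sult1a1 rose 1.89-fold (log2 change 0.92, SE 0.116, adjusted p = 8.75e-04 by limma).

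Mfsd2a carries lysophosphatidylcholine lipids across the endothelium of the blood-brain barrier. It ranged from 10.22 to 10.95 with a median of 10.83 after saline, and from 11.39 to 11.94 with a median of 11.76 after morphine. The low saline value and the high morphine value were the 2 chip 2 arrays, where the difference was 1.72, against 0.83 to 0.99 on the other 5 chips. Mfsd2a rose 2.03-fold (log2 change 1.02, SE 0.130, adjusted p = 8.75e-04 by limma), and by 0.89 on the log2 scale without those arrays (adjusted p = 1.89e-04 by limma).

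Hif3a encodes an alpha subunit of the hypoxia-inducible factors that can restrain the other alpha subunits. Its values were 7.44, 8.13 and 8.82 after saline and 9.05, 9.45 and 9.67 after morphine as lowest, median and highest array. The groups did not overlap, but the saline arrays were spread widely, and the chip differences ran from 0.68 to 2.23. The rise was 2.35-fold (log2 change 1.23, SE 0.205, adjusted p = 0.0199 by limma). The 2 further Hif3a probes above the filter, both dim, had differences of -0.10 and 0.48, so the size of the change depends on the probe.

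The 3 smallest rises were of Gjb6, Adipor2 and Mertk. Gjb6 encodes connexin 30, a gap junction protein of astrocytes. Its saline arrays lay between 12.30 and 12.48 except for replicate 32, at 13.04, and the morphine arrays lay between 12.93 and 13.67. That single saline array, which is one of the 2 chip 2 arrays, made the groups overlap. Gjb6 rose 1.61-fold (log2 change 0.68, SE 0.120, adjusted p = 0.0320 by limma). Without the 2 arrays its change was 0.69 with an adjusted p of 0.0667 by limma, which does not pass.

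Adipor2, a receptor of the fat-derived hormone adiponectin, lay at 11.59, 11.85 and 12.10 after saline and at 12.22, 12.42 and 12.60 after morphine as lowest, median and highest array. It rose 1.49-fold (log2 change 0.57, SE 0.0810, adjusted p = 0.00330 by limma), while its 2 dimmer probes had differences of 0.00 and 0.08. Mertk is a receptor tyrosine kinase of the TAM family with which phagocytic glia take up cell debris. Its values were 10.35, 10.53 and 10.67 after saline and 10.81, 11.02 and 11.35 after morphine, with no overlap. Mertk rose 1.44-fold (log2 change 0.53, SE 0.0808, adjusted p = 0.00842 by limma).

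**Figure D1:**
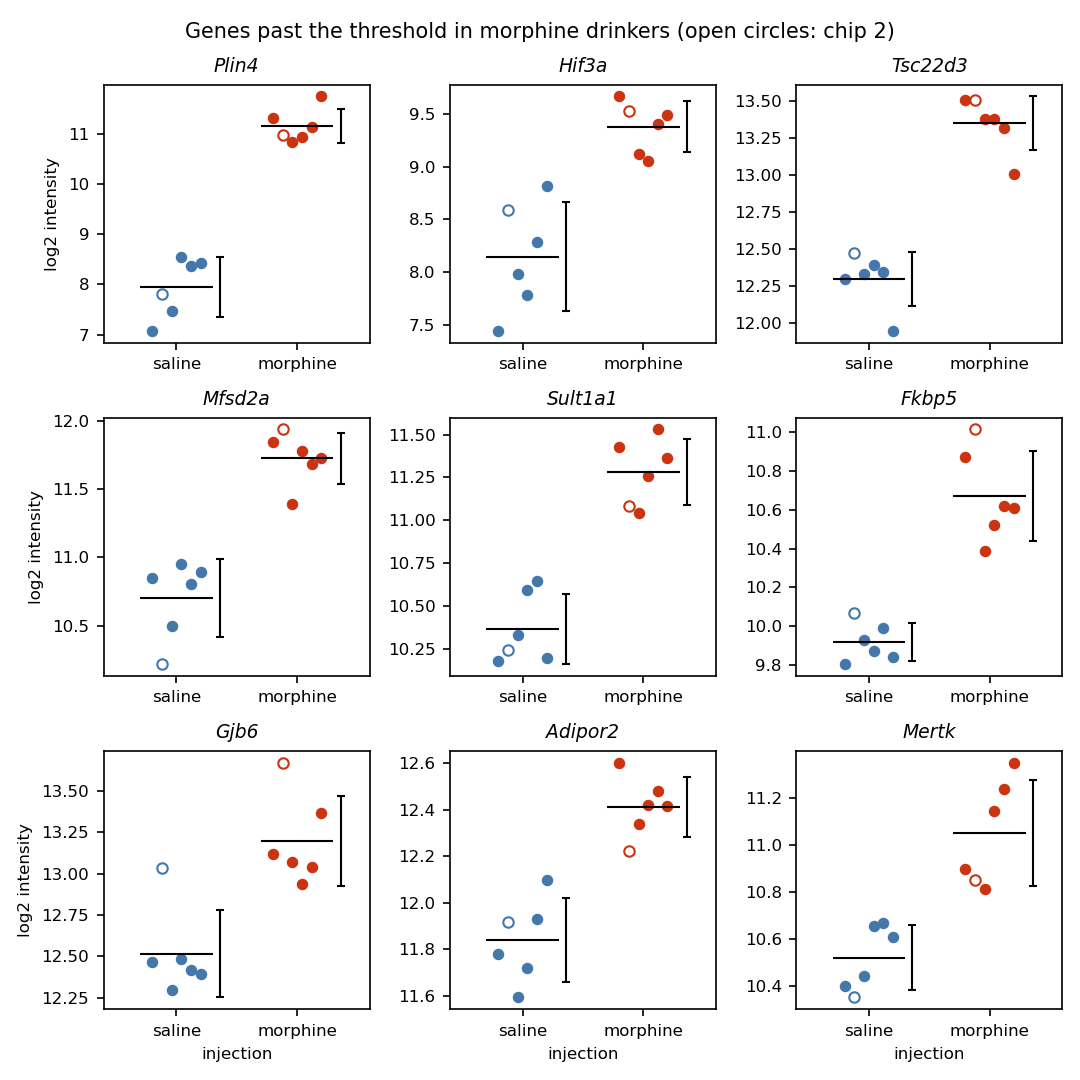
Normalized log2 intensity on each array of morphine drinkers for the 9 genes that rose, by injection, with chips in order from left to right in each group; horizontal lines are means, vertical bars SD (n = 6) and open circles the arrays of chip 2. Except for Gjb6, where saline replicate 32 lies at 13.04, every morphine array lies above every saline array.

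Camk1g, Per2, Slc2a1 and Syne1 passed only when the 2 chip 2 arrays were left out, and on chip 2 their differences were -0.13, 0.09, 0.22 and -0.10. Camk1g, a calcium/calmodulin-dependent kinase, differed by 0.62 to 1.58 on the other 5 chips. Its log2 change was 1.02 without the 2 arrays (adjusted p = 0.00526 by limma) and 0.83 with them (adjusted p = 0.0881). For Slc2a1, the glucose transporter of the blood-brain barrier, it was 0.65 without the 2 arrays (adjusted p = 0.0320 by limma) and 0.58 with them (adjusted p = 0.178). For Syne1, which encodes a nuclear envelope protein, it was 0.41 without (adjusted p = 0.0379 by limma) and 0.33 with them (adjusted p = 0.331).

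Per2, a repressor of the circadian clock that glucocorticoids can also induce, lay between 11.04 and 11.78 after saline and between 11.79 and 12.60 after morphine. The gap between the groups was narrow, and the lowest morphine array was the one on chip 2. Its change was 0.75 without the 2 arrays (adjusted p = 0.0400 by limma) and 0.64 with them (adjusted p = 0.110), and a second bright probe of Per2 had a difference of 0.56.

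**Figure D2:**
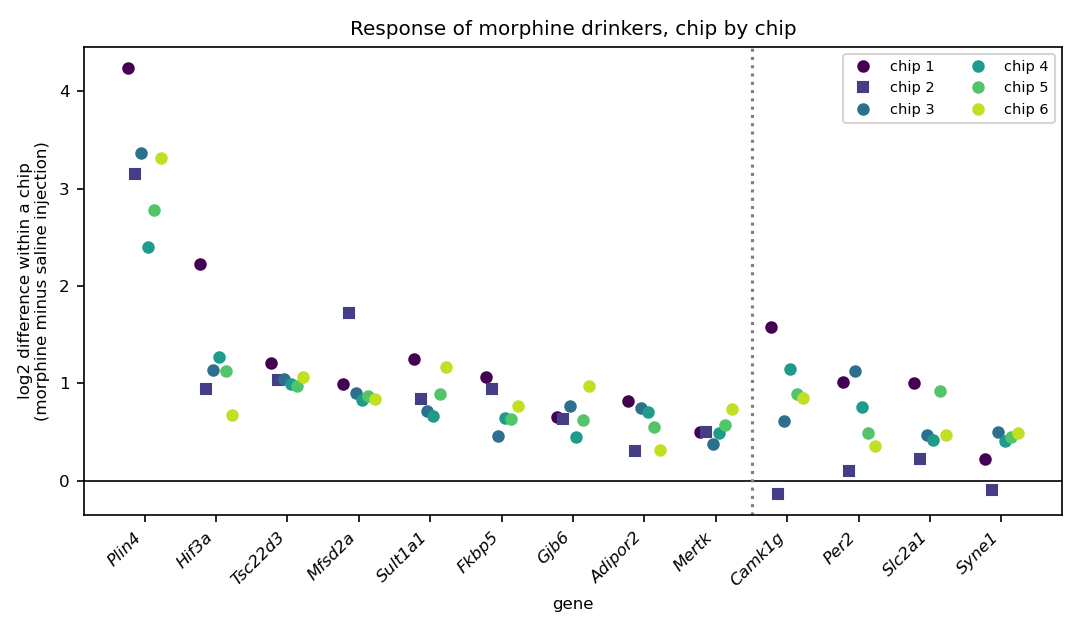
Difference between the morphine and the saline array of each chip, in log2 units, for the 9 genes that rose (left of the dotted line) and the 4 that passed only without the 2 chip 2 arrays (right); squares are chip 2. The 9 genes on the left are above 0 on every chip, and Camk1g and Syne1 are below 0 on chip 2 alone.

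Arrays of the 2 groups did not overlap for more genes than passed the test. All 6 morphine arrays were above all 6 saline arrays for 35 genes (0.255%), 8 of which are among the 9 that rose, and below them for 17 genes (0.124%). Without the 2 chip 2 arrays this held for 100 (0.727%) and 45 genes (0.327%). Arrays of small groups also separate by chance, more often with fewer arrays. The counts were not weighed against that rate, so they are a description and not calls. Among the genes of smallest p that did not pass, Klf9, a Krueppel-like transcription factor gene known as a glucocorticoid target, had a log2 difference of 0.33 (SE 0.0636, adjusted p = 0.0800 by limma). The difference was -0.63 for Gkn3, a gastrokine gene (adjusted p = 0.0881), -0.41 for Fgfr2, a fibroblast growth factor receptor (adjusted p = 0.104), and 0.42 for Htra1, a secreted serine protease (adjusted p = 0.105). Cxcl12, a chemokine gene, lay between 11.14 and 12.06 after saline and between 10.36 and 11.23 after morphine, overlapping slightly, with a difference of -0.74 (adjusted p = 0.110). These 5 genes had 1 direction on 6 of 6 chips, as had 2.73% of all genes upward and 2.72% downward. Ccdc6 (0.41), Rin2 (0.48), Litaf (-0.48), Krtap19-5 (0.67) and Lrrc8a (0.52) followed, with adjusted p from 0.110 to 0.135, and they too kept 1 direction on all chips.

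Weighting each array by its own spread gave more calls: 40 genes rose (0.291%) and 23 fell (0.167%), and the 9 genes above were all among the 40. Of these 63 genes, 54 had the same direction on 6 of 6 chips, as had 2.73% of all genes upward and 2.72% downward. All 63 had the same sign in the unweighted fit without the 2 chip 2 arrays. The 63 were called from these same arrays, so both counts describe the calls and add no support. With weights and without those arrays 28 genes rose (0.204%) and 3 fell (0.0218%), so most of the falls did not pass there. The falls of largest size in the weighted fit were Meox1, a homeobox gene (-0.93, adjusted p = 0.0487 by limma), Cxcl12 (-0.72, adjusted p = 0.0102), Opalin, a myelin membrane glycoprotein of oligodendrocytes (-0.71, adjusted p = 0.0385), Rassf3 (-0.70), Syt17 (-0.69) and Gkn3 (-0.65). After Plin4, Hif3a, Tsc22d3, Sult1a1 and Mfsd2a, the next rise was Pglyrp1, a peptidoglycan recognition protein gene (0.91, adjusted p = 0.0301). The weights of the 2 chip 2 arrays were 0.749 and 0.589, within the range of the other 22 (0.230 to 3.60). Among the arrays of morphine drinkers, saline and morphine weights were 1.51 and 2.61 on chip 5, and 3.60 and 2.26 on chip 6. On chips 1 to 4 they ran from 0.551 to 1.23. The weighted calls thus lean most on chips 5 and 6.

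Among genes known to be induced by glucocorticoids, 7 of 45 tested rose and none fell, against 0.0655% of all genes. The 7 were Plin4, Hif3a, Tsc22d3, Mfsd2a, Sult1a1, Fkbp5 and Gjb6. Without the 2 chip 2 arrays 7 rose, with Camk1g in place of Gjb6. The list was put together with results of these arrays known, so its count describes the genes and is not independent evidence. Of the 45, 40 were higher after morphine and 5 lower, while 49.8% of all genes tested were higher. The median log2 change was 0.26, and over all genes tested it was 0.00. The mean over the 45 genes includes the 7 that rose, so it does not show what the other members do alone. It lay between 10.03 and 10.28 on the saline arrays and between 10.36 and 10.79 on the morphine arrays.

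Several classical targets of the same list did not pass. Sgk1, a serum- and glucocorticoid-regulated kinase, lay between 13.04 and 13.74 after saline and between 13.34 and 14.74 after morphine. Its groups overlapped, and the morphine array was lower on chip 4 (-0.35) but higher by 1.66 on chip 1. The fitted difference was 0.64 (SE 0.195, adjusted p = 0.398 by limma). The log2 difference was 0.77 for Cdkn1a, the cell cycle inhibitor p21 (adjusted p = 0.309), and 0.60 for Angptl4, an inhibitor of lipoprotein lipase (adjusted p = 0.323). It was 0.50 for Ddit4, an inhibitor of mTOR signalling (adjusted p = 0.614), and 0.39 for Pdk4, a kinase that turns off pyruvate dehydrogenase (adjusted p = 0.783). Per1, a clock gene with a glucocorticoid response, had a difference of 0.21 and was higher on 3 of 6 chips. None of the 10 tested genes of the receptor machinery, the steroid receptor with its chaperones and activating enzymes, passed, and their median change was -0.03. The receptor gene Nr3c1 was dim, at 6.99 ± 0.293 and 7.14 ± 0.479.

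Of the pathway lists, 9 held 1 member that rose, against 0.0655% of all genes, and 13 held none. The 9 include families chosen because a called gene belongs to them, so their counts are a description. Of 4 tested perilipins, Plin4 rose, and Plin2, Plin3 and Plin5 had log2 differences of 0.07, 0.33 and 0.17. Of 4 TSC22 domain genes, Tsc22d3 rose, and Tsc22d1 had a difference of 0.51 (adjusted p = 0.135 by limma). This was close in size to the called change of Mertk. Of 12 FK506-binding proteins Fkbp5 alone rose, the next being Fkbp14 at 0.20.

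Among 5 TAM receptors and ligands Mertk rose, while its relatives Axl and Tyro3 had log2 differences of -0.06 and -0.12. Among 6 sulfotransferase genes Sult1a1 rose and Sult1d1 had a difference of 0.36. Of 11 connexins and pannexins Gjb6 rose, and Gja1, the other main astrocyte connexin, stood at 0.09. Hif3a rose among 18 genes of the hypoxia-inducible factor system, and Hif1a and Epas1 stood at -0.03 and 0.14. Of 20 genes of lipid fuel use, and of 10 of adiponectin and insulin signalling, Adipor2 rose, and the sister receptor Adipor1 stood at 0.04. Pnpla2, the triglyceride lipase of lipid droplets, had a larger difference than Adipor2 but did not pass (0.61, SE 0.163, adjusted p = 0.295 by limma).

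**Figure D3:**
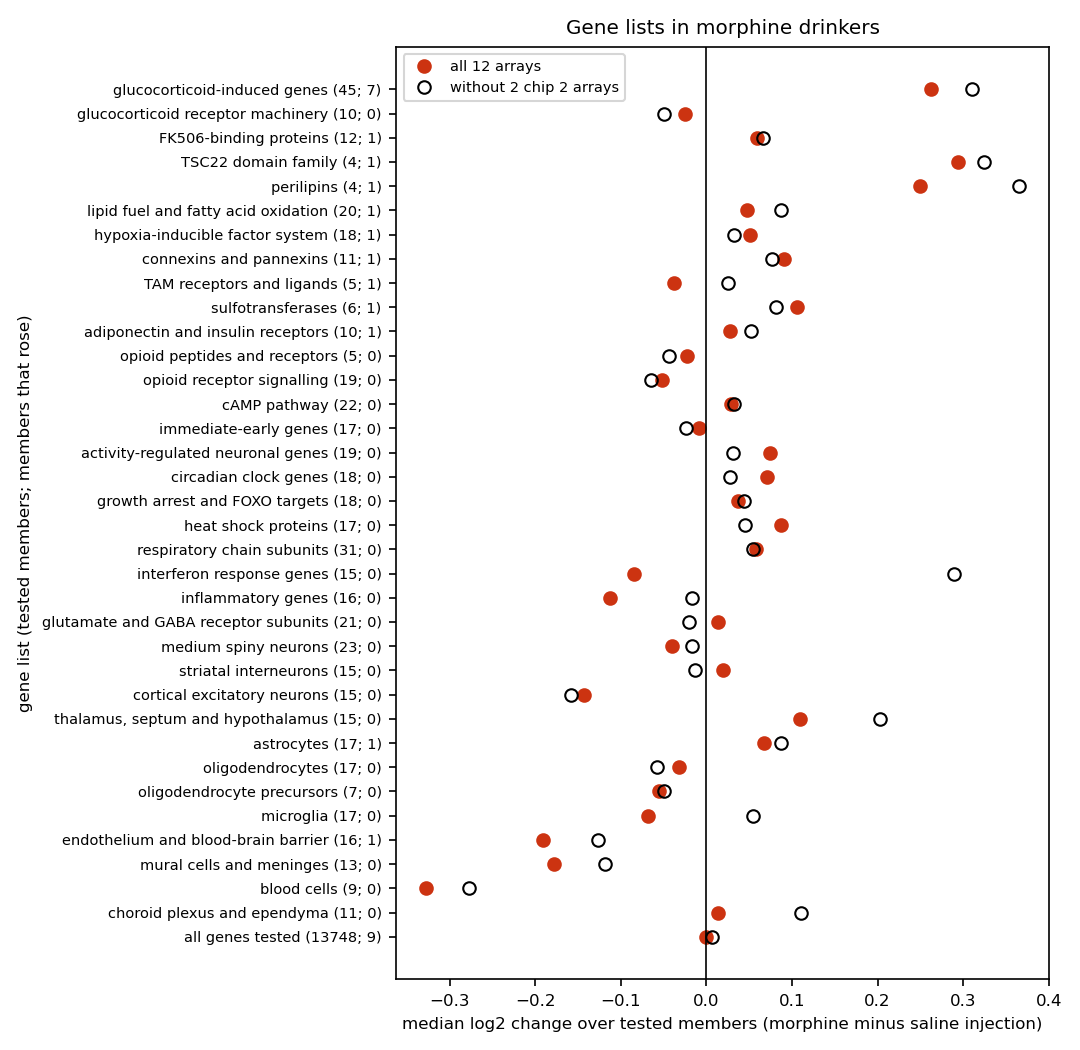
Median log2 change over the tested members of each gene list, with all 12 arrays (filled) and without the 2 chip 2 arrays (open); the counts beside each name are tested members and members that rose. Glucocorticoid-induced genes have a median of 0.26, all genes tested 0.00, and interferon response genes lie at -0.09 with all arrays and at 0.29 without the 2.

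Opioid genes gave no call in the morphine drinkers. None of 5 tested opioid peptide and receptor genes passed. The log2 difference was -0.02 (SE 0.461) for Penk, the enkephalin precursor gene, 0.15 (SE 0.369) for Pdyn, the dynorphin precursor gene, and -0.18 (SE 0.314) for Oprk1, the kappa receptor gene. Penk was low on the 2 chip 2 arrays, at 8.98 after saline and 8.68 after morphine, against 10.66 to 12.33 on the other 22 arrays. Without them the difference was 0.03 for Penk and 0.23 for Pdyn. The mu receptor gene Oprm1 was below the filter, at a mean of 6.40. Of 19 genes of opioid receptor signalling none passed, 14 were lower and the median was -0.05. Over all 13748 genes tested 6905 were lower. Of 22 genes of the cAMP pathway none passed, with a median of 0.03. The transcription factor gene Creb1, a target of cAMP signalling, had a difference of 0.24 (adjusted p = 0.890 by limma).

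Genes of neuronal activity did not pass either. None of 17 immediate-early genes passed, and their median change was -0.01. Fos, the first of them, lay between 8.73 and 11.56 after saline and between 10.13 and 10.73 after morphine. The morphine arrays fell inside the range of the saline arrays, which were spread over nearly 3 log2 units. The log2 difference was 0.17 (SE 0.271) for Arc, a synaptic protein gene, 0.19 (SE 0.129) for Egr1 and 0.07 (SE 0.173) for Fosb, both transcription factor genes. For Bdnf, a growth factor gene, it was 0.17 (SE 0.453). None of 19 further activity-regulated genes passed.

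Of 18 clock genes none passed with all arrays and Per2 passed without the 2 arrays of chip 2, while Dbp, a clock output gene, had a difference of 0.06. Growth arrest and FOXO targets (18 tested), heat shock proteins (17), respiratory chain subunits (31), inflammatory genes (16) and glutamate and GABA receptor subunits (21) had no call, with medians from -0.11 to 0.09. Interferon response genes (15 tested) had no call, and their median turned from -0.09 to 0.29 without the 2 arrays. On saline replicate 32 the mean of the interferon list was 9.90, above the 8.39 to 8.97 of the other 5 saline arrays. The mean of the inflammatory list was 9.15 on that array, above the 8.27 to 8.71 of the same 5.

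Cell type markers were set beside these results. Of 23 genes of medium spiny neurons none passed, with a median of -0.04, and apart from the 2 chip 2 arrays the list mean lay at 11.88 to 12.33 after saline and 11.84 to 12.33 after morphine. Of 17 astrocyte genes Gjb6 rose, 13 were higher (49.8% of all genes were) and the median was 0.07. Their list mean includes Gjb6, so it is not separate from the rise of that gene. It lay at 11.50 to 11.54 on 5 saline arrays and at 11.75 on replicate 32, against 11.57 to 11.74 on the morphine arrays. With Gjb6 counted, all 6 morphine arrays were thus above 5 of the saline arrays and below replicate 32. The log2 difference was 0.13 for Gfap, -0.05 for Aqp4, the astrocyte water channel, and 0.18 for Aldh1l1, a folate enzyme. The part of this difference in the rise of Gjb6 was not tested.

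Of 16 genes of endothelium and the blood-brain barrier Mfsd2a rose, and 11 were lower (6905 of all 13748 genes were), with a median of -0.19. The tight junction gene Cldn5 had a difference of -0.34 (adjusted p = 0.843 by limma). The list mean, which includes Mfsd2a, lay between 9.98 and 10.18 after saline and between 9.65 and 10.12 after morphine. Within chips it was higher after morphine on chips 4 and 5 and lower on the other 4, while Mfsd2a was higher on all 6, and the part of these markers in its rise was not tested. Blood cell genes (9 tested) had a median of -0.33, mural cells and meninges (13) of -0.18 and cortical excitatory neurons (15) of -0.14, each with no call. Striatal interneurons (15), markers of thalamus, septum and hypothalamus (15), oligodendrocytes (17), their precursors (7), microglia (17) and choroid plexus (11) had no call and medians from -0.07 to 0.11. The microglial receptor gene Cx3cr1 had a difference of -0.51 (adjusted p = 0.241 by limma) and was lower on 5 of 6 chips. On chip 2 it stood at 11.26 after saline and at 10.40 after morphine. The median of the microglia list was -0.068 with all arrays and 0.055 without the 2 chip 2 arrays.

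**Figure D4:**
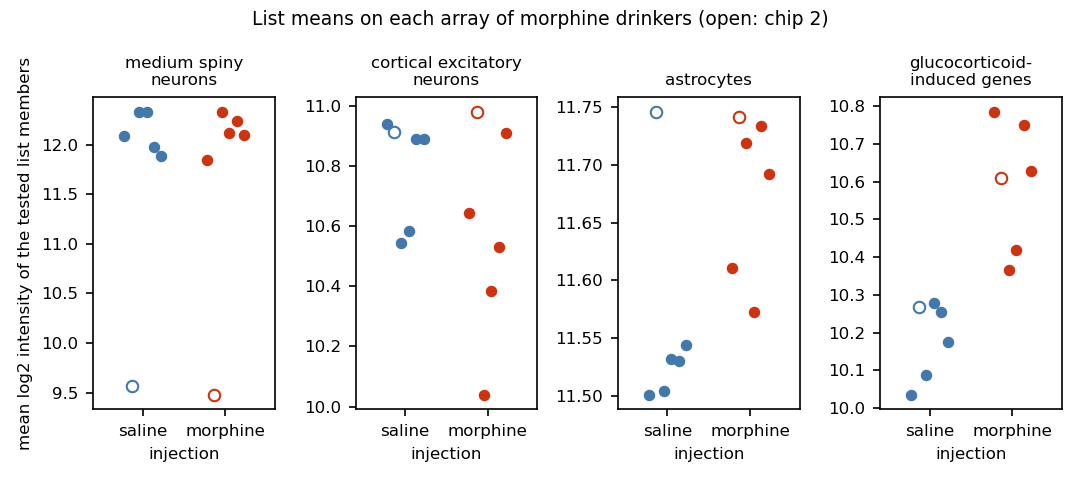
Mean log2 intensity over the tested members of 4 gene lists on each array of morphine drinkers, by injection, with chips in order from left to right and the chip 2 arrays open. Medium spiny neuron genes are low on both chip 2 arrays (9.57 and 9.48). Glucocorticoid-induced genes, with the 7 that rose among them, lie at 10.03 to 10.28 after saline and 10.36 to 10.79 after morphine. The mean of the astrocyte genes includes Gjb6.

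The same injection in saccharin drinkers raised 41 genes (0.298%) and lowered 10 (0.0727%), and 8 of the 9 genes that rose in morphine drinkers were among the 41, all but Gjb6. The 2 responses share no arrays, but they share chips and 1 estimate of the spread. The difference between them, tested as the interaction of drink and injection, passed for 0 genes by limma, with 723 genes (5.26%) at an unadjusted p under 0.05. A longer list of calls in 1 kind of drinker is therefore not shown to be a difference between them.

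For the 9 genes the difference between the responses, morphine drinkers minus saccharin drinkers, ranged from -0.24 for Hif3a to 0.14 for Gjb6. Plin4 changed by 3.21 and 3.08, a difference of 0.13 with a 95% interval from -0.55 to 0.81. For Tsc22d3 the difference was -0.04 (-0.30 to 0.23), for Mfsd2a 0.04 (-0.35 to 0.42) and for Fkbp5 -0.22 (-0.48 to 0.03). All 4 intervals span 0, so no difference is shown, and a difference within those intervals remains possible.

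The genes called in saccharin drinkers were then read in morphine drinkers. The arrays of morphine drinkers are not in that contrast, but they entered the normalization, the filter, the choice of probe and the estimate of the spread. All 41 rises were higher after morphine in morphine drinkers too, 36 of them at an unadjusted p under 0.05, against 3.41% of all genes, and all 10 falls were lower, 5 of them at an unadjusted p under 0.05, against 2.95%. The median change of the 41 was 0.48 in morphine drinkers and 0.71 in saccharin drinkers, and that of the 10 was -0.19 and -0.58. Because the genes were chosen for passing in saccharin drinkers, a larger value there is partly set by the choice, and the medians are given side by side without a comparison.

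The genes called in saccharin drinkers with the largest difference were Pla2g3, a secreted phospholipase (0.09 in morphine drinkers and 0.92 in saccharin drinkers), Depp1, a FOXO target (0.11 and 0.86), Cyp2e1, a cytochrome P450 (-0.16 and -0.87), Xdh, xanthine dehydrogenase (0.54 and 1.18), and the stress kinase gene Map3k6 (0.44 and 1.05). None of these 5 differences passed (adjusted p = 0.935 for each by limma). Over all genes the smallest interaction p belonged to Taar8b, Arf4, Snx24, Ccdc85b and Klhdc9, also at an adjusted p of 0.935. For Sgk1 the values were 0.64 in morphine drinkers and 1.19 in saccharin drinkers. For Per2 they were 0.64 and 0.22, where the 95% interval of the difference ran from 0.02 to 0.80 without adjustment (adjusted p = 0.935 by limma).

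**Figure D5:**
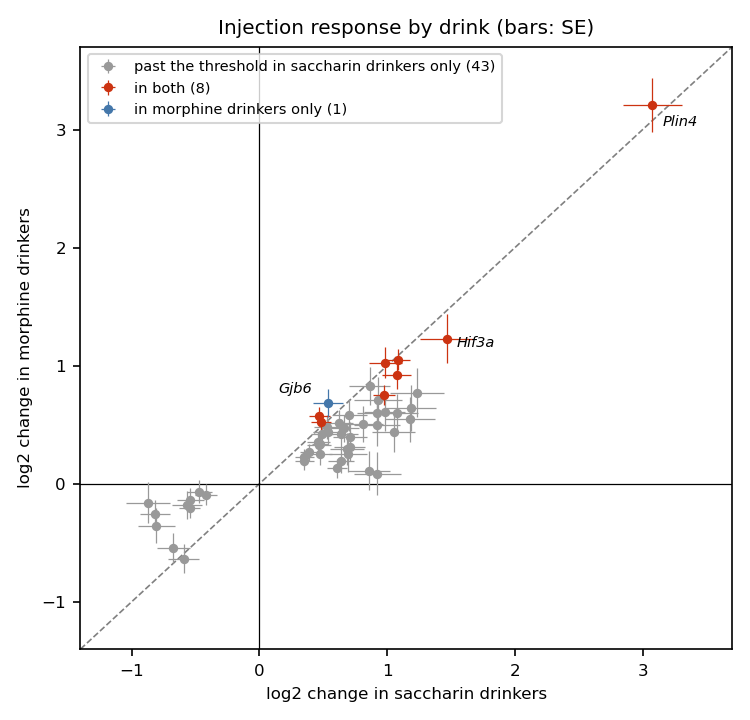
Log2 change after the morphine injection in saccharin drinkers (horizontal) and in morphine drinkers (vertical) for the genes past the threshold in either, with SE bars and a dashed line of equal change. Plin4 lies close to the line at 3.08 and 3.21, and genes called in saccharin drinkers, chosen by their horizontal value, lie mostly nearer to 0 on the vertical axis.

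Promoter windows of the 9 genes that rose were read for the glucocorticoid response element, from RefSeq on GRCm38.p6, each window running from 250 bases before to 50 after the gene's start. The element was searched as its arms AGAACA and TGTTCT with 3 free bases between them, on both strands, with up to 2 mismatches in the 12 fixed letters. It was found in 606 of 32851 windows (1.84%), and an exact copy of an arm in 6233 (18.97%). Among the 9 genes, Sult1a1 held 1 element with 2 mismatches, starting 34 bases before the start, and a further arm at 212 bases before it. One of 3 Tsc22d3 windows held an arm at 185 bases before the start, and the window of Plin4, the gene of largest change, held neither. The 3 windows are shown because they span these cases. Each whole match is in capitals, which for the Sult1a1 element includes the 3 free bases and the 2 mismatched letters. They lie at chr7:126676369-126676668 for Sult1a1, chrX:140600473-140600772 for Tsc22d3 and chr17:56109733-56110032 for Plin4, all on the minus strand.
Sult1a1: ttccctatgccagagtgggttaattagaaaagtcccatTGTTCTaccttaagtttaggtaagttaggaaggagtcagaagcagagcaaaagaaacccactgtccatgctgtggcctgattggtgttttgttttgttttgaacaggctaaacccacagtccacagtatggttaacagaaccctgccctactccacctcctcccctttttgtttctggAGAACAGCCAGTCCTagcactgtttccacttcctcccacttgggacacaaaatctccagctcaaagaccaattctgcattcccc
Tsc22d3: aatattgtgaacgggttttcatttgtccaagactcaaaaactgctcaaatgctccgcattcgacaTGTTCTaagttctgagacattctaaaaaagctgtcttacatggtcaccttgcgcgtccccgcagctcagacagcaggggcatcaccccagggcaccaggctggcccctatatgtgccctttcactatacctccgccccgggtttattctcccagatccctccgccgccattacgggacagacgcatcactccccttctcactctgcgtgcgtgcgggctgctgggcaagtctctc
Plin4: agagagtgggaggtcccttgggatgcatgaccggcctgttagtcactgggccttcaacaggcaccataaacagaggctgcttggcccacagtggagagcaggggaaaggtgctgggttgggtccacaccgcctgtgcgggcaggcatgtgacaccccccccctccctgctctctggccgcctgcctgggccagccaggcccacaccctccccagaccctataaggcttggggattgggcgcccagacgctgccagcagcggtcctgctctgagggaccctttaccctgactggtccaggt

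The windows of Fkbp5, Mfsd2a, Hif3a, Gjb6, Adipor2 and Mertk held no match either. A match is a stretch of letters and not a measured binding site, and the absence of one says only that these letters are not in the 300 bases read.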

How the data were processed

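RNA of mouse striatum was hybridised as biotinylated cRNA to 24 Illumina arrays, per the labels' protocols. The authors deposited probe intensity on a linear scale without normalization between arrays. The authors also deposited log2 values, which served as an alternative (how they were made is not stated in the labels). Chips were read from the array identifiers in the labels.

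Intensities were background-corrected (normexp, offset 50), put on the log2 scale and quantile-normalized in limma 3.58.1 (R 4.3.3). Of 45281 probes, 34885 had 1 gene symbol in the platform annotation, 18 several and 10378 none listed. Probes with 1 symbol and a mean above the 40th percentile (log2 7.05) were kept, the brightest standing for its gene, which left 13748 genes. Group and chip were fitted over all 24 arrays with lmFit and eBayes, two-sided, and p-values were adjusted by Benjamini-Hochberg over all genes with a threshold of 0.05. The median SE of a log2 change was 0.142, and the number of arrays limits the precision. The fit was tested on simulated data.

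The members and the gene lists were chosen with earlier results of these data known. Named genes were those past the threshold with all arrays or without the 2 chip 2 arrays, the 12 of smallest p that did not pass, the first 3 tested members and every passing member of each list, the 6 largest rises and falls with array weights, 20 landmark genes, the 5 smallest interaction p, and the 5 largest differences among genes called in saccharin drinkers. Plin5, Fkbp14 and Pnpla2 were named after their values were seen. The landmark Oprd1 was not analysed here. Alternatives covered background, scaling, filter, probes, blocks, weights, the prior, the groups fitted and each array or chip left out. Figures were drawn with matplotlib 3.10.9.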

Additional observations from a re-analysis of the deposited data

Results flagged for a closer look

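In the morphine drinkers, 13 values stood apart from the other 5 arrays of their group by a gap that was large for the group's range, out of 96 groups examined. Chance flags about 1 in 20 groups, but the groups share arrays and genes, so the count is not weighed against that rate. Of the 13 flags, 10 came from the 2 chip 2 arrays. Those arrays were set apart beforehand by low Drd1 and Drd2, which are members of the medium spiny neuron list. The lists of opioid peptides and of the cAMP pathway share genes with it. On saline replicate 32 Gjb6 was high at 13.04, Syne1 high at 13.32, the mean of the astrocyte genes high at 11.75, and the means of medium spiny neuron genes and of the cAMP pathway low at 9.57 and 10.86. On morphine replicate 31 the mean of the glucocorticoid receptor machinery was high at 10.95, and the means of medium spiny neuron genes (9.48), opioid peptides and receptors (8.94), the cAMP pathway (10.90) and oligodendrocytes (11.42) were low. Away from chip 2, Tsc22d3 was low on saline replicate 41 at 11.95, the mean of growth arrest and FOXO targets was high on saline replicate 37 at 10.02, and the mean of respiratory chain subunits was low on morphine replicate 40 at 12.87.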

How the results depend on the processing

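With all arrays 9 genes rose after morphine in morphine drinkers and none fell. There were 5 rises with arrays scaled to a common median and 2 when only the 2 groups compared were fitted, with no falls. A trended and robust prior called 18 genes (15 rises and 3 falls), array weights 63 (40 and 23), and array weights without the 2 chip 2 arrays 31 (28 and 3). Fitting only the 2 groups without the 2 chip 2 arrays, chosen after seeing the data, gave 3 rises. In calls of either direction, leaving out 1 array gave 7 to 13 and leaving out 1 chip 5 to 13, the 5 without chip 1, and the cause was not tested. The 51 calls in saccharin drinkers became 10 when arrays had a common median, 28 with no chip block, 30 with position on the chip added, 10 with only the 2 groups fitted, and 12 to 36 with 1 chip left out (16 without chip 1, 27 without chip 3, 15 without chip 4, 12 without chip 5 and 15 without chip 6). Plin4 and Tsc22d3 passed in all 35 alternatives, Mfsd2a in 34, Sult1a1 in 33, Fkbp5 in 32, Adipor2 in 29, Mertk in 27, Hif3a in 19 and Gjb6 in 14. Hif3a had a log2 difference of 0.54, which did not pass, when the probes of a gene were averaged. The replicate numbers in the titles differ between the groups, so no paired analysis by replicate number was possible, and the pairing used was that of the chip, a block in the fit that holds 1 array of every group. Probes near the filter, such as those of Nr3c1, lie close to background, where a fold change is understated. The lowest saline array of Plin4 lies there too.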
